A study of Mus musculus with 16 samples.

Results

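Transcripts of the laminin and integrin genes were examined in primary cortical brain endothelial cells cultured from *APOE3* and *APOE4* mice. The genes were chosen by a rule on names, as all protein-coding rows whose symbol is that of a laminin chain (Lama, Lamb or Lamc) or of an integrin subunit (Itga or Itgb). This gave 37 of the 39057 rows in the count table, made up of 11 laminin chains, 18 integrin alpha subunits and 8 integrin beta subunits. Of these, 26 passed the filter on low counts and were tested, 10 laminins and 16 integrins.

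Laminins are secreted trimers of an alpha, a beta and a gamma chain that polymerize into the sheet of the basement membrane on which blood vessels rest. Integrins are transmembrane heterodimers of an alpha and a beta subunit that bind laminins, collagens, fibronectin and other matrix or cell surface ligands and link them to the actin cytoskeleton. In brain vessels the laminins made by endothelial cells carry the alpha4 or alpha5 chain, while laminins with the alpha2 chain come from astrocytes and the cells around the vessel, and beta1 integrins are the main endothelial receptors for this matrix.

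Polyadenylated RNA was sequenced from 16 cultures, 8 of each genotype, to compare the transcriptome of *APOE4* with that of *APOE3* cells. The mice were targeted replacement lines in which the mouse promoter drives human *APOE3* or human *APOE4*, so the controls carry a human allele as well, and they were 21 to 28 days old according to the labels. Each culture was grown from the cortex of 1 animal, each genotype had 4 males and 4 females, and the cells received no treatment other than selection with 8 µg/ml puromycin, which other brain cells tolerate less well. All cultures were plated on a coat of fibronectin, collagen and laminin, which are themselves integrin ligands, so the data hold no condition without them.

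Total counts on genes were 14276942 to 16603076 per *APOE3* library and 12717847 to 18624417 per *APOE4* library. Human APOE had 15504 to 22318 counts in *APOE3* and 7672 to 14722 counts in *APOE4* libraries, which shows that the gene is expressed but cannot tell the alleles apart. All 20 brain endothelial markers on the list used were tested, with summed levels of 18363 to 19786 CPM in *APOE3* and 17840 to 19737 CPM in *APOE4* libraries. CPM are counts scaled to the normalized library size. Fewer cells of a type and less RNA per cell cannot be told apart in such bulk cultures.

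The endothelial laminin chains were among the abundant transcripts of these cells. Levels were compared between genes as CPM per kilobase of merged exons, given here as mean ± SD over all 16 libraries. The gamma1 chain Lamc1, a part of most laminin trimers, had 208.9 ± 9.05 CPM per kb and took 99.1% of the summed gamma chain level. Lamc3 (0.565 ± 0.151) lay far below. Among the beta chains, Lamb2 (115.6 ± 5.19 CPM per kb) lay above Lamb1 (58.6 ± 3.74) in all 16 libraries. Per kilobase of longest transcript Lamb2 stayed above Lamb1, but the gap was smaller (124.9 and 100.4). Lamb3, the beta chain of epithelial laminin-332, had 0 to 7 counts per library and was not tested.

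Of the alpha chains, Lama5 had 96.3 ± 9.89 and Lama4 64.6 ± 3.02 CPM per kb, and together they made up nearly all of the summed alpha chain level, with shares of 55.9% and 37.6%. Their order depends on the length used, since the merged exons of Lama4 (12.1 kb) are longer than its longest transcript (6.05 kb). Per kilobase of longest transcript, Lama4 was at 128.9 and Lama5 at 96.3. Lama1 (8.09 ± 1.26 CPM per kb), best known from embryonic and meningeal basement membranes, and Lama3 (2.84 ± 0.329) came next. Lama2, the alpha chain of muscle and of the glial side of brain vessels, was the lowest tested member with 0.0957 ± 0.0640 CPM per kb and 4 to 68 counts per library.

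**Figure D1:**
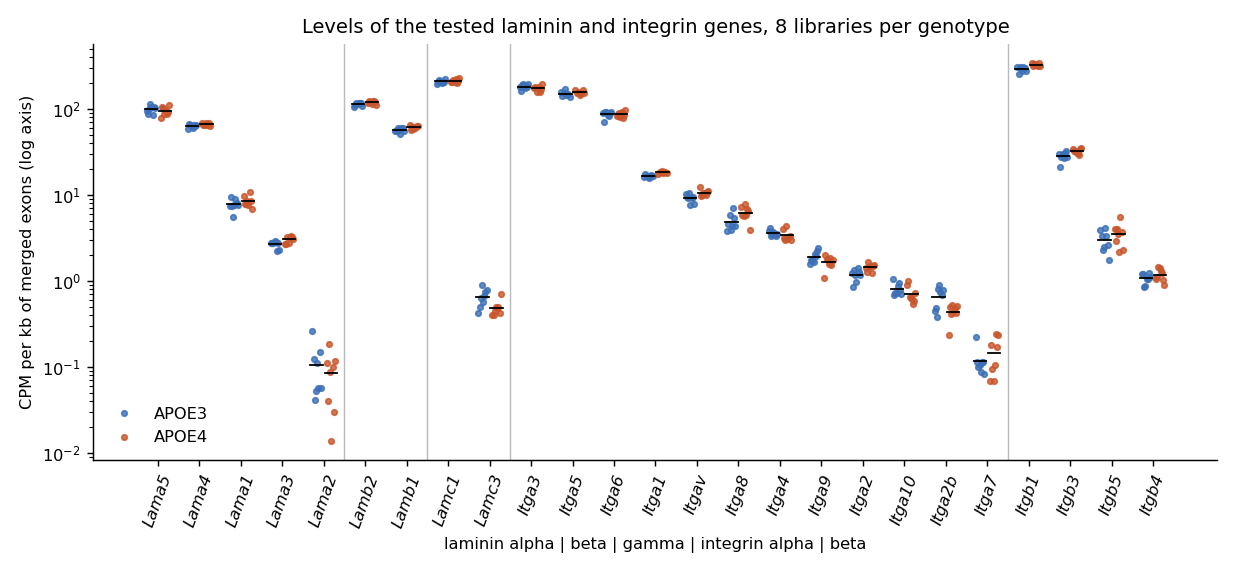
Level of 25 tested laminin and integrin genes in CPM per kilobase of merged exons, on a log axis, with 1 point per library (8 *APOE3*, 8 *APOE4*) and a bar at each genotype's mean. Itgb1 stands highest with a mean of 307.3, and Lama2 lowest with 0.0957.

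Integrin transcripts were dominated by Itgb1, the beta1 subunit that pairs with most alpha subunits. It had 307.3 ± 24.0 CPM per kb, ranked 83 of the 12467 tested genes with a known length, and took 89.9% of the summed beta subunit level. Itgb3 (30.1 ± 3.42 CPM per kb), partner of the alphav and alphaIIb subunits, held 8.80%, Itgb5 (3.23 ± 0.966) held 0.946%, and Itgb4 (1.12 ± 0.177), the beta subunit of hemidesmosomes, held 0.329%. The ranges of these 4 genes over the 16 libraries did not overlap.

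Most of the alpha subunit level came from 3 genes. The laminin receptor subunits Itga3 (176.5 ± 11.8 CPM per kb) and Itga6 (86.3 ± 6.48) and the fibronectin receptor subunit Itga5 (151.6 ± 8.69) took 38.8%, 18.9% and 33.3% of the summed alpha level. Itga3 lay above Itga5 in every library, but per kilobase of longest transcript Itga6 (180.7) stood above Itga5 (169.4). Next came Itga1 (17.3 ± 0.992), a collagen receptor subunit, Itgav (9.84 ± 1.18), which binds ligands with an RGD motif, Itga8 (5.53 ± 1.31), another RGD receptor subunit, and Itga4 (3.48 ± 0.408), which binds VCAM-1 and fibronectin. The ranges of Itgav and Itga8 overlapped over libraries, as did those of Itga8 and Itga4. Itga9 (1.78 ± 0.312), Itga2 (1.30 ± 0.205), Itga10 (0.757 ± 0.154), Itga2b (0.545 ± 0.181) and Itga7 (0.131 ± 0.0591) lay below, and each of these overlapped its neighbour in this order. Of the Itga10 exon bases, 33.5% are shared on the same strand with the predicted gene Gm42957, which had at most 4 counts in a library. Reads in the shared part could therefore be missing from the count of Itga10, and its level could be too low.

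The integrins of leukocytes were near 0. The alpha subunits Itgal, Itgam, Itgax, Itgad and Itgae had at most 7 counts in any library, and Itgb2, their beta subunit except in the case of Itgae, had 0 to 9 counts. Itgam and Itgad had 0 counts in all 16 libraries, which allows a level of up to 0.0120 CPM over the 16 libraries together. Of the Itgam exon bases, however, 68.7% are shared on the same strand with the protein-coding gene Gm49368, which also had 0 counts. Reads in the shared part could be missing from the counts of both, so this limit may be too low for Itgam. Of 12 microglia and macrophage markers, 6 (Cx3cr1, P2ry12, Adgre1, Tyrobp, C1qa and C1qb) had at most 3 counts in every library. The other untested members were Itgb7 (2 to 15 counts), Itgb6 and Itgb8 (at most 4 and 2), which activate latent TGF-beta with alphav, and the collagen receptor subunit Itga11 (at most 3).

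A combination of chains was called expressed where all its chains passed the filter on low counts, which says nothing of assembled protein. Of 24 known integrin heterodimers, 15 were expressed, including all 4 laminin receptors, 3 of 4 collagen receptors, 6 of 8 RGD receptors and 0 of 4 beta2 integrins. By the level of the lower chain, alpha3beta1 stood first (176.5 CPM per kb), followed by alpha5beta1 (151.6), alpha6beta1 (86.3), alpha1beta1 (17.3), and alphavbeta1 and alphavbeta3 (both limited by Itgav at 9.84). The remaining laminin receptors were limited by Itgb4 (alpha6beta4, 1.12) and Itga7 (alpha7beta1, 0.131). Of 14 laminin trimers, 13 were expressed, and laminin-332 was not, for want of Lamb3. Laminin-211, laminin-213 and laminin-221 passed with Lama2 at only 0.0957 CPM per kb, and laminin-423 and laminin-523 with Lamc3 at 0.565. The highest lower-chain levels were those of laminin-521 (96.3), laminin-421 (64.6), and laminin-411 and laminin-511 (both 58.6, limited by Lamb1). Both orders turn in part per kilobase of longest transcript, where alpha6beta1 (180.7) stood above alpha5beta1 (169.4), and laminin-421 (124.9) and laminin-411 (100.4) stood above laminin-521 and laminin-511 (both 96.3, limited by Lama5).

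With *APOE4*, 4 integrin transcripts were higher and 0 laminin or integrin transcripts were lower (edgeR's quasi-likelihood F test, adjusted p under 0.05, 8 libraries per genotype). The 4 were Itga1, Itga2, Itgav and Itgb1, so that both chains of the collagen receptors alpha1beta1 and alpha2beta1 and of alphavbeta1 were called. These are 15.4% of the 26 tested members, where 6.71% of all tested genes were called higher and 6.09% lower. An unadjusted p under 0.05 was found for 13 of the 26 members (of which 2, Itga2b and Lamc3, had lower levels) and for 29.0% of all genes. The median log2 fold change of the tested members was 0.09 (-0.0002 for all tested genes), and the median absolute value was 0.179 (0.0890 for all tested genes).

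**Figure D2:**
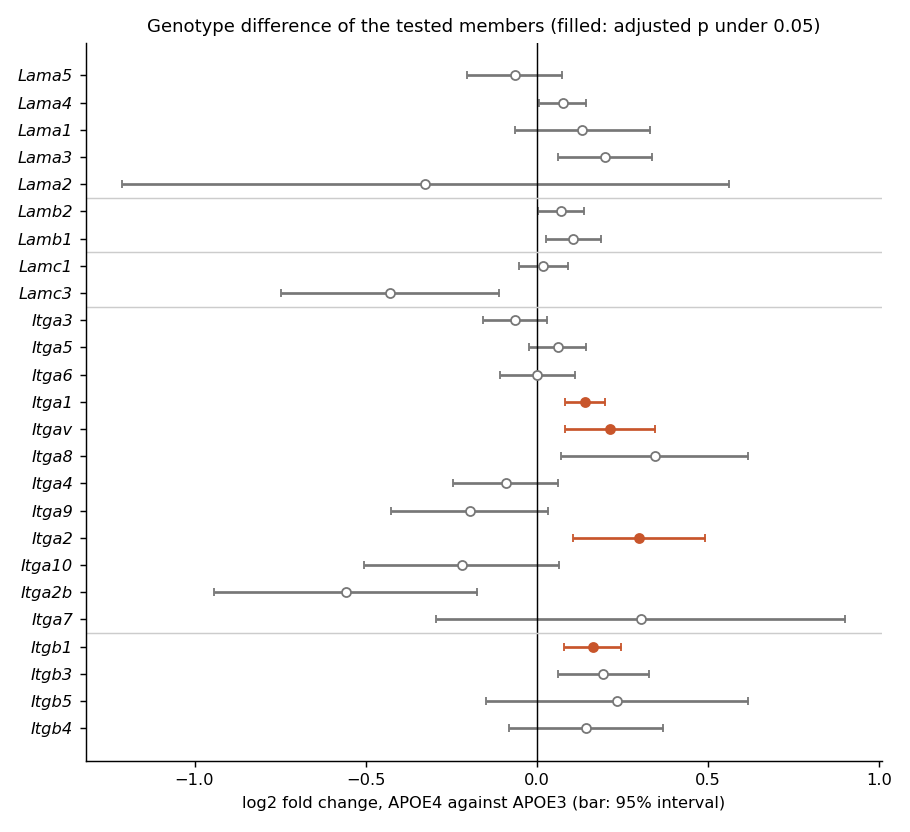
Log2 fold change of *APOE4* against *APOE3* for 25 of the tested members with its 95% interval, by laminin alpha, beta and gamma chains and integrin alpha and beta subunits. The 4 filled points (Itga1, Itgav, Itga2 and Itgb1) passed an adjusted p under 0.05, and all lie above 0.

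Itga1 (ENSMUSG00000042284.9, chromosome 13 from 114953096 to 115101964, GRCm38) encodes the alpha1 subunit, which binds collagen IV with beta1. Its level was 295.0 to 322.3 CPM (median 306.4) in *APOE3* and 320.0 to 346.9 CPM (median 341.5) in *APOE4* libraries. Of the 8 *APOE4* libraries, 7 lay above every *APOE3* library, and the exception was replicate 35. The mean rose from 306.8 ± 9.42 to 338.1 ± 9.05 CPM (SD, n = 8), a log2 fold change of 0.14 (SE 0.0284, edgeR adjusted p = 0.00718). The increase of 10.2% is small, and this gene had the smallest standard error of all tested members.

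Itgb1 (ENSMUSG00000025809.15, chromosome 8 from 128685654 to 128733200) ranged from 1022 to 1262 CPM (median 1214) in *APOE3* and from 1276 to 1391 CPM (median 1325) in *APOE4* libraries. It was the 1 member whose genotypes did not overlap, which held for 0.625% of all tested genes. The mean went from 1183 ± 83.5 to 1325 ± 45.0 CPM (log2 fold change 0.16, SE 0.0403, edgeR adjusted p = 0.0143). Itga1 and Itgb1 were called in each of 16 fits that left out 1 library.

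Itgav (ENSMUSG00000027087.11, chromosome 2 from 83724397 to 83806916) had 80.6 to 113.7 CPM (median 99.3) in *APOE3* and 104.1 to 132.2 CPM (median 112.4) in *APOE4* libraries. The groups overlapped, with 3 *APOE4* libraries above all of *APOE3* and 6 *APOE3* libraries below all of *APOE4*. The log2 fold change was 0.21 (SE 0.0626, edgeR adjusted p = 0.0308). Without *APOE3* replicate 30 or 33 or *APOE4* replicate 35 or 41 the adjusted p ran from 0.0591 to 0.0641.

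Itga2 (ENSMUSG00000015533.8, chromosome 13 from 114833081 to 114932100) lies beside Itga1 and encodes the other collagen receptor subunit called here. It had 6.05 to 9.93 CPM (median 8.56) in *APOE3* and 8.90 to 11.7 CPM (median 10.4) in *APOE4* libraries. Although 6 *APOE4* libraries exceeded all of *APOE3*, the lowest of *APOE4* lay within the *APOE3* range. The log2 fold change of 0.30 (SE 0.0922, edgeR adjusted p = 0.0383) rested on 92 to 198 counts per library, and the call was kept in 6 of 16 fits that left out 1 library. It was lost without *APOE3* replicate 26, 28, 30 or 33 or *APOE4* replicate 35, 37, 38, 39, 41 or 43, with an adjusted p of up to 0.0853.

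**Figure D3:**
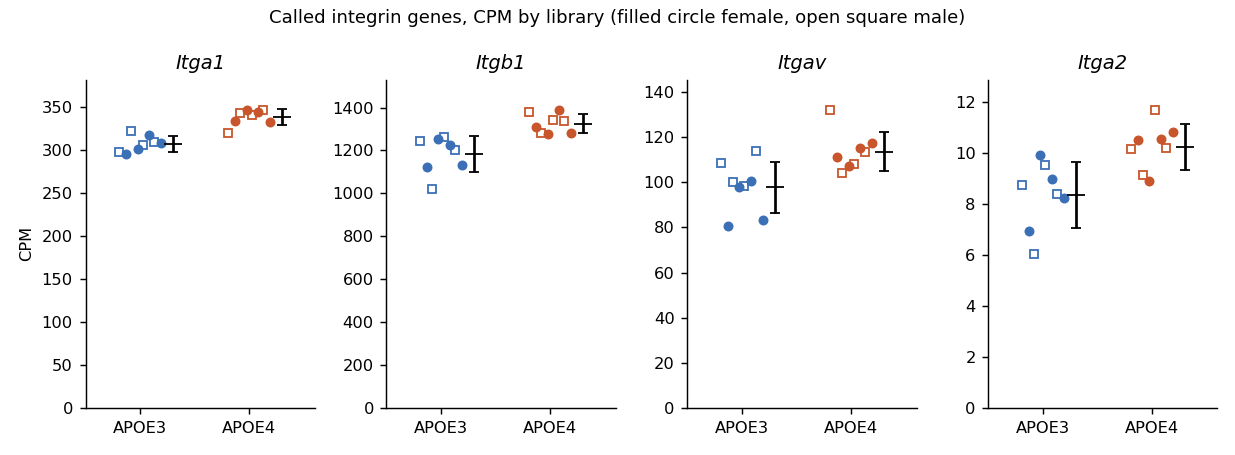
CPM of the 4 called integrin genes in each library, with females as filled circles and males as open squares, and the mean ± SD of each genotype beside the points. The *APOE4* libraries of Itgb1 (1276 to 1391 CPM) all lie above those of *APOE3* (1022 to 1262 CPM), and the other 3 genes overlap.

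The 250 bases upstream of the annotated start of these 4 genes are shown because the members moved in the same direction. They are RefSeq sequences of GRCm38.p6, written from 5′ to 3′ on the strand of the gene, and come from chr13:115101965-115102214 (minus strand, Itga1), chr13:114932101-114932350 (minus strand, Itga2), chr2:83724147-83724396 (plus strand, Itgav) and chr8:128685404-128685653 (plus strand, Itgb1). Capitals mark matches to any of 4 motifs searched on both strands.
Itga1: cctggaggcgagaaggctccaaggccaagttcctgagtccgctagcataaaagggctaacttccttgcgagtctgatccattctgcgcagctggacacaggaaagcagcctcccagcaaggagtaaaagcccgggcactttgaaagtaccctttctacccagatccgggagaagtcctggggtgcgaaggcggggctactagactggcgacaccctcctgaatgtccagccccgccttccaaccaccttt
Itga2: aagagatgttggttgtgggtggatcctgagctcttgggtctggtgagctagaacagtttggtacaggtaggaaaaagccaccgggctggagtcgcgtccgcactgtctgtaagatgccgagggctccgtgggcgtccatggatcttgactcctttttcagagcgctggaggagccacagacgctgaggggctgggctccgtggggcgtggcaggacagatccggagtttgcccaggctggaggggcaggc
Itgav: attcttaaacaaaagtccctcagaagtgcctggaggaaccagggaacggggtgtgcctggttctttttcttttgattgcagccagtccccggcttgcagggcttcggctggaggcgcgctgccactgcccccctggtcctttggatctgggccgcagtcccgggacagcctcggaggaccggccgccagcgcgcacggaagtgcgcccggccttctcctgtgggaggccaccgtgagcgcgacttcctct
Itgb1: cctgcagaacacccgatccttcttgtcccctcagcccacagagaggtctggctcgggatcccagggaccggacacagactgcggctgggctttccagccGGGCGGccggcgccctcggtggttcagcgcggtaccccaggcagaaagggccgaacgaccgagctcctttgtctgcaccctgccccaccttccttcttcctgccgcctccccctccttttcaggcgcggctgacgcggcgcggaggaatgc

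The motifs were the GC box GGGCGG, the AP-1 site TGANTCA, the cyclic AMP response element TGACGTCA and the TATA box TATAAA. In these 4 windows the GC box had 1 match, in Itgb1, and the other motifs had 0 matches. Of all 32851 upstream windows of this length, 32.7% held the GC box, 6.75% the AP-1 site, 1.55% the cyclic AMP response element and 12.4% the TATA box. The windows of Itga1, Itga2, Itgav and Itgb1 had 10, 12, 18 and 21 CpG dinucleotides, against a median of 6 over all windows, and a GC content of 57.6%, 60.8%, 64.4% and 68.0%, against a median of 52.4%. The windows of the uncalled members were not compared, so these values are not shown to be particular to the called genes. A match of letters is a description and does not show binding.

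A further 7 members had adjusted p-values from 0.05 to 0.10 in edgeR. Itgb3, which with Itgav forms the vitronectin receptor, had 124.2 to 190.6 CPM (median 168.5) in *APOE3* and 171.5 to 205.3 CPM (median 189.8) in *APOE4* libraries. Every *APOE4* library exceeded the *APOE3* median, and 4 exceeded all of *APOE3*. Its log2 fold change was 0.19 (SE 0.0638), with an adjusted p = 0.05003 just above the threshold, and it was called with DESeq2.

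Itga8 (log2 fold change 0.34, SE 0.131, edgeR adjusted p = 0.0865) had 27.7 to 52.2 CPM in *APOE3* and 28.9 to 57.5 CPM in *APOE4* libraries, so the genotypes overlapped widely. Pericytes and smooth muscle cells also express this subunit. On a list of 14 markers of those cells, 9 were tested, 8 had a value above 0, 0 were called in edgeR (median log2 fold change 0.25), and the summed level was 192.8 to 361.8 CPM in *APOE3* and 227.3 to 345.1 CPM in *APOE4* libraries. The part of such cells in the value of Itga8 was not tested.

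Itga2b, the alphaIIb subunit known from platelets, had the lowest log2 fold change of all members, -0.56 (SE 0.184, edgeR adjusted p = 0.0505). It had 2.04 to 4.85 CPM (median 3.89) in *APOE3* and 1.27 to 2.84 CPM (median 2.49) in *APOE4* libraries. No *APOE4* library reached the *APOE3* median. Among 10 markers of other leukocytes and platelets, 6 had at most 3 counts in every library (Ppbp and Gp9 among them), and 1 was tested, with summed levels of 1.33 to 4.15 CPM in *APOE3* and 1.03 to 3.04 CPM in *APOE4* libraries.

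With genotype alone in edgeR, 0 of the 10 tested laminin chains were called, although 6 had an unadjusted p under 0.05. DESeq2, which called 16.1% of all genes, called Lama3 and Lamb1 with higher and Lamc3 with lower levels. The edgeR fit with GC content and gene length corrected (11.7% of all genes called) called Lama3 and also Lamb2, whose log2 fold change there was 0.11 (adjusted p = 0.0349) beside 0.07 without the correction. Lama3 was also called with at least 10 counts required in every library (14.4% of all genes). Limma voom with sample weights called it too (890 higher and 751 lower of 12481 genes). In edgeR, Lama3 was called without *APOE4* replicate 35, 36 or 38, and Lamb1 without *APOE4* replicate 36. The chains of the abundant trimers had small differences between genotypes. Lamc1 had 1717 ± 74.9 CPM in *APOE3* and 1740 ± 78.2 CPM in *APOE4* libraries, and the 95% interval of its log2 fold change was -0.05 to 0.09. Lama4 (0.08, interval 0.01 to 0.14), Lama5 (-0.07, -0.20 to 0.07), Lamb1 (0.11, 0.03 to 0.19) and Lamb2 (0.07, 0.004 to 0.14) had log2 fold changes of the same order, with edgeR adjusted p-values from 0.0746 to 0.556. A change as large as that of Itgav (0.21) lies outside the intervals of these 5 chains.

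The minor chains were less precise. Lamc3, a chain of laminins in retina and brain surface, had 2.56 to 5.43 CPM (median 3.96) in *APOE3* and 2.45 to 4.24 CPM (median 2.85) in *APOE4* libraries, with 7 of 8 below the *APOE3* median (log2 fold change -0.43, SE 0.153, edgeR adjusted p = 0.0677). Lama3 went from 28.4 ± 2.79 to 32.6 ± 3.02 CPM (log2 fold change 0.20, SE 0.0659, edgeR adjusted p = 0.0520). Lama1 (0.13, SE 0.0948) and Lama2 (-0.33, SE 0.425) had adjusted p-values of 0.373 and 0.657, and the interval of Lama2, from -1.21 to 0.56, leaves a more than 2-fold decrease possible.

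The laminin receptor subunits were not called either. Itga3 had 1030 ± 56.6 CPM in *APOE3* and 985.6 ± 73.5 CPM in *APOE4* libraries (log2 fold change -0.06, 95% interval -0.16 to 0.03). Itga6 had 778.2 ± 65.8 and 779.0 ± 54.7 CPM (0.001, interval -0.11 to 0.11), and Itga7 had a log2 fold change of 0.30 with an interval from -0.30 to 0.90 at 7 to 29 counts per library. The fibronectin receptor subunit Itga5 had 732.0 ± 49.2 and 763.7 ± 30.6 CPM (0.06, interval -0.02 to 0.14). Log2 fold changes were below 0 for Itga4 (-0.09), Itga9 (-0.20) and Itga10 (-0.22) and above 0 for Itgb4 (0.14) and Itgb5 (0.24), with edgeR adjusted p-values from 0.248 to 0.438.

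Ratios of 2 chains within a library do not depend on its scaling, and 4 were compared between genotypes. The read ratio of Lama4 to Lama5 was 0.683 ± 0.0841 in *APOE3* and 0.756 ± 0.104 in *APOE4* libraries, and 6 of 8 *APOE4* libraries lay above the *APOE3* median (two-sided exact permutation test over 12870 assignments, p = 0.147, adjusted over the 4 ratios 0.589). Lamb1 to Lamb2 had 0.816 ± 0.0433 and 0.838 ± 0.0593 (exact p = 0.453), Itga5 to Itga6 0.945 ± 0.0815 and 0.985 ± 0.0865 (exact p = 0.360), and Itgb3 to Itgb5 16.9 ± 5.55 and 16.6 ± 5.36 (exact p = 0.913). None differed beyond the spread between libraries.

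Within each sex, with 4 libraries per genotype, edgeR called 0 members, as it called 0.0% of all genes, and DESeq2 called 3 in females (Itga1, Itgav and Lama3) and 3.56% of all genes. Unadjusted p-values under 0.05 were found for 6 members in males (14.2% of all genes) and for 10 in females (19.5% of all genes), and 23 of the 26 members had the same sign in both sexes. The effect on Itga1 was 0.13 (SE 0.0412) on the log2 scale in males and 0.15 (SE 0.0412) in females, and that on Itgb1 was 0.18 (SE 0.0612) and 0.15 (SE 0.0612). For Lama3 the effect was 0.04 (SE 0.0830) in males and 0.35 (SE 0.0828) in females. Male *APOE4* libraries had 28.5 to 34.9 CPM of it beside 29.2 to 31.2 in male *APOE3* libraries, while the 4 female *APOE4* libraries (33.0 to 35.5) lay above the 4 female *APOE3* libraries (23.9 to 30.7). The difference of these effects was 0.31 (SE 0.117, unadjusted p = 0.0155, edgeR adjusted p = 0.9999). No difference between the sexes in the effect of genotype passed the threshold for any member, with 2 members (Lama3 and Itga7) at an unadjusted p under 0.05 and 2.76% of all genes. Females and males themselves differed in 0 members (0.0721% of all genes, edgeR), with 1 member (Itga2b) and 4.41% of all genes at an unadjusted p under 0.05.

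Genes whose products join laminins and integrins were followed on 5 lists, whose counts stand beside the 6.71% of all tested genes called higher and the 6.09% called lower. Of 15 tested basement membrane partners, 7 were higher and 0 lower with *APOE4* in edgeR, with a median log2 fold change of 0.13. They include Fbln1, a matrix glycoprotein (11.5 ± 3.27 to 21.5 ± 4.83 CPM, log2 fold change 0.90, adjusted p = 0.00542), Nid1, which bridges laminin and collagen IV (0.25, adjusted p = 0.0217), Col18a1, a basement membrane collagen (0.20, adjusted p = 0.0315), Col4a1, a ligand of alpha1beta1 (10312 ± 622 to 11589 ± 646 CPM, 0.17, adjusted p = 0.0120), and Sparc, which binds collagen (0.16, adjusted p = 0.0296). The count fell to 2 without *APOE3* replicate 30 or *APOE4* replicate 41, to 3 without *APOE3* replicate 33 or *APOE4* replicate 35, and to 4 without *APOE3* replicate 26.

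Among the other laminin receptors, 1 of 9 tested genes was higher, also near the share of all genes, namely the sarcoglycan Sgcb (0.21, edgeR adjusted p = 0.0478), with 4 called without *APOE3* replicate 31, 2 without *APOE4* replicate 43, and 0 in 11 of the 16 fits that left out 1 library. Of 20 tested integrin ligands other than laminins, 4 were higher and 0 lower in edgeR. Fn1 encodes fibronectin, the ligand of alpha5beta1, and rose by 0.33 on the log2 scale (adjusted p = 0.0200). Thbs1, which encodes thrombospondin-1 (0.65, adjusted p = 0.0195), and Spp1, which encodes osteopontin (0.88, adjusted p = 0.00868), have products that bind alphav integrins. Vcam1 encodes the ligand of alpha4beta1 (0.43, adjusted p = 0.00423).

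Inside the cell, 3 of 33 tested integrin adaptors were higher and 3 lower in edgeR, a share near that of all tested genes (6.71% higher and 6.09% lower), so the count is no result about the adaptors. The higher genes were Tln2, a talin that activates integrins (0.45, adjusted p = 0.00574), Fermt3, the kindlin of blood cells (0.37, adjusted p = 0.00817), and Kank2, a talin-binding protein (0.16, adjusted p = 0.0160). The lower genes were the parvins Parvb (-0.22, adjusted p = 0.00574) and Parvg (-0.68, adjusted p = 0.0177) and the endocytic adaptor Dab2 (-0.14, adjusted p = 0.0201). Without *APOE3* replicate 31, 5 were higher and 5 lower, and without *APOE4* replicate 43, 6 were lower. Of 9 membrane proteins that associate with integrins, 2 were lower and 0 higher in edgeR, namely Slc3a2, the heavy chain of CD98 (-0.30, adjusted p = 0.0111), and the tetraspanin Cd63 (-0.24, adjusted p = 0.0278), and 1 was lower without *APOE3* replicate 30 or 33 or *APOE4* replicate 35, 40 or 41.

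**Figure D4:**
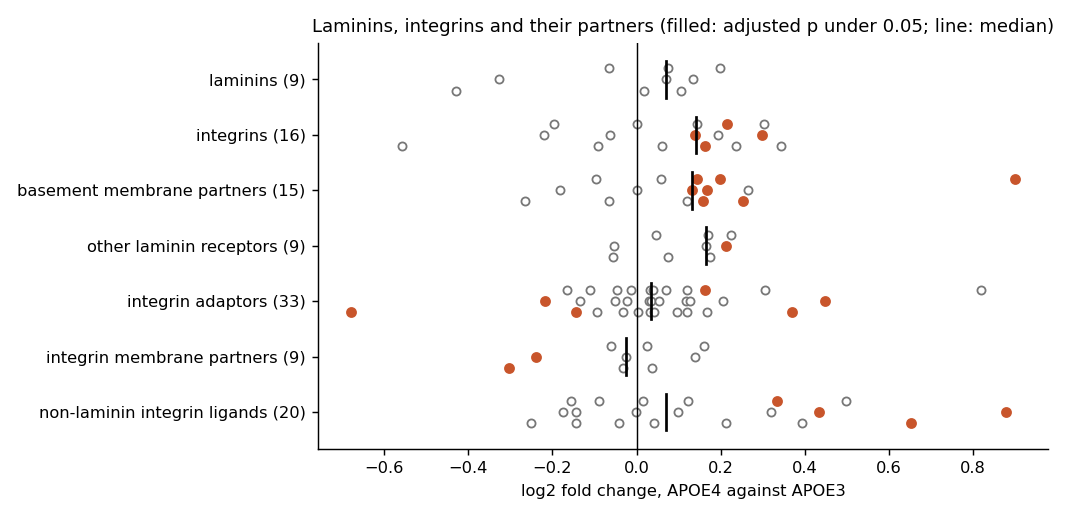
Log2 fold change of *APOE4* against *APOE3* for 25 tested laminins and integrins and each tested gene of the 5 partner lists (number of genes in brackets), with called genes filled and a line at the median. Called genes lie above 0 among the integrins, the basement membrane partners, the other laminin receptors and the ligands, on both sides among the adaptors, and below 0 among the membrane partners.

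Counts of called cell type markers stand beside the 6.71% of all tested genes called higher and the 6.09% called lower. The lists of other cells had few tested genes, so a count of 0 called is no result about those cells. Fibroblast (4 tested, summed level 13.6 to 66.1 CPM in *APOE3* and 10.4 to 85.8 CPM in *APOE4* libraries), astrocyte (3 tested, 35.4 to 44.6 and 36.7 to 45.3 CPM), microglia and macrophage (2 tested, 39.4 to 50.3 and 45.0 to 49.8 CPM) and neuron lists (2 tested, 8.98 to 13.01 and 10.9 to 15.6 CPM) had 0 genes called in edgeR. Of 2 tested oligodendrocyte markers, Cnp was higher (24.5 to 32.2 and 31.6 to 38.0 CPM for the list). Of the 20 brain endothelial markers, Emcn was higher and Slco1c1, Slc7a5 and Pltp were lower. The part of these cells in the values of the members was not tested.

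Cell cycle genes did move with genotype, with 27 of 30 higher and 0 lower in edgeR (median log2 fold change 0.65). These are RNA levels. In other assays the paper found no genotype difference in cell density or in nuclei labelled with bromodeoxyuridine at confluence. The mean log2 CPM of these 30 genes, used as a score, was 5.05 to 6.08 in *APOE3* and 5.82 to 6.59 in *APOE4* libraries. The groups overlapped, but the score was 0.59 higher on average with *APOE4* (two-sided exact permutation test over 12870 assignments, p = 0.00124). Score and genotype thus went together, and a fit with both cannot fully tell them apart. A call lost in that fit does not show which of them a gene follows. With this score beside genotype in the model, edgeR called 0 genes of any kind, and 2 of 26 members (Itga1 and Lama3) and 7.15% of all genes had an unadjusted p under 0.05. The log2 fold change of Itga1 then was 0.15 (SE 0.0402, unadjusted p = 0.00127, edgeR adjusted p = 0.505), beside 0.14 without the score, and that of Lama3 was 0.23 (SE 0.0941), beside 0.20. Those of Itgb1 (0.06, SE 0.0455), Itgav (0.04, SE 0.0706), Itga2 (0.14, SE 0.123) and Itga8 (-0.05, SE 0.134) were nearer to 0 than without the score. For Itga1 and Lama3, therefore, the estimate was as large with the score in the model, and for Itgb1, Itgav, Itga2 and Itga8 it was smaller. A larger estimate with the score was not particular to Itga1 and Lama3. Among the uncalled members, Itga7 (0.44 beside 0.30), Itgb4 (0.19 beside 0.14), Itga4 (-0.15 beside -0.09) and Itga10 (-0.27 beside -0.22) had one too.

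**Figure D5:**
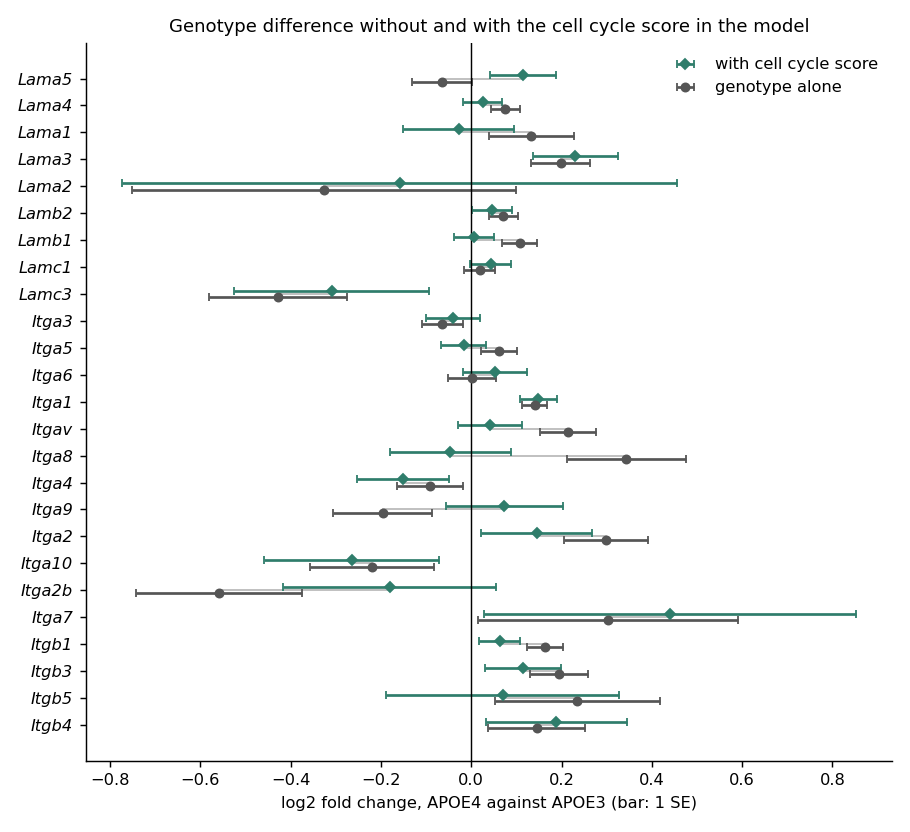
Log2 fold change of *APOE4* against *APOE3* for 25 of the tested members with genotype alone (circles) and with the cell cycle score beside it (diamonds), each with 1 SE. Itga1 stays at 0.14 and 0.15, while Itga8 moves from 0.34 to -0.05.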

How the data were processed

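Libraries of polyadenylated RNA (100 ng of RNA per culture, 17 PCR cycles) were read as 50-nt pairs. What the authors deposited are raw counts per gene, whole numbers without normalization, for 39056 mouse identifiers and human APOE. The submitters' processing notes name STAR, featureCounts and the builds mm10 and hg38. The annotation release and the strand setting of the counting are not given in the sources used here, so antisense partners could not be separated. Names, positions and exon lengths are from GENCODE mouse release 21 (GRCm38), which matched 38872 mouse identifiers, and upstream sequences are from RefSeq (GRCm38.p6), where 23 of the 37 members had a window.

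Counts of all 16 libraries were fitted in R 4.3.3 with edgeR 4.0.16 (filterByExpr by genotype, TMM, quasi-likelihood F test, genotype as the single term), with Benjamini-Hochberg adjustment over 12481 genes and a threshold of 0.05. The SE of a log2 fold change was computed from F, and 95% intervals use the fit's degrees of freedom. Effects by sex came from 1 fit of 4 groups. The ratios used counts with 0.5 added. Alternatives were DESeq2 1.42.0, limma 3.58.1 (voom with sample weights), other filters and covariates, and each library left out in turn. Figures were drawn with matplotlib 3.10.9. The fit was tested on simulated data. Reads carry no molecular identifiers, so a limit from a count of 0 covers counting error only, and p-values measure the spread between cultures of separate animals. The members, the gene lists and the tests were chosen with earlier results of these data known. The values of 1 tested member are not reported here, though counts over members include it. The other members are accounted for, and from each partner list up to 5 called genes with the largest change are named. Dab2 was named after its value was seen, as were the called markers.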

Additional observations from a re-analysis of the deposited data

Results flagged for a closer look

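The 8 libraries of each genotype were examined in 60 groups of values (each tested member's CPM and the 4 chain ratios) for a single library at either end whose gap to the next, as a share of the whole range, exceeded Dixon's 95% critical value. This limit is passed by chance in about 5% of groups, and 4 passed it. Lamc3 had 4.24 CPM in *APOE4* replicate 43, above the next library at 3.03 CPM, and DESeq2 and the edgeR fit without this library called it lower. Itga7 had 1.81 CPM in *APOE3* replicate 25, with the other libraries between 0.670 and 0.920 CPM. Itga2b had 1.27 CPM in *APOE4* replicate 35, with the other libraries between 2.25 and 2.84 CPM. The read ratio of Lamb1 to Lamb2 was 0.721 in *APOE3* replicate 30, below the next library at 0.799. The libraries concerned differ in all 4 cases.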

How the results depend on the processing

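The edgeR count of 4 higher members was 7 with at least 10 counts required in every library, 8 with DESeq2, 0 with the cell cycle score in the model, and 2 to 7 with 1 library left out (2 without *APOE3* replicate 30 or 33 or *APOE4* replicate 41, and 7 without *APOE3* replicate 31 or *APOE4* replicate 36). The count of 0 lower members was 1 with at least 10 counts (Itga2b), 2 with DESeq2 (Itga2b and Lamc3), 1 with sex as a covariate, and 0 to 2 with 1 library left out (2 without *APOE3* replicate 25 or *APOE4* replicate 43, 1 without *APOE3* replicate 26 or 27). In females, 2 members were higher without a filter on low counts, 3 with DESeq2, and 0 to 3 with 1 library left out, and 0 to 1 were lower. Itga1 and Itgb1 were called under all 7 alternatives other than the cell cycle score and in all fits without 1 library. Itgav lost its call with GC content and gene length corrected, and Itga2 there and without a filter. Signs turned with the cell cycle score for Itga5 (-0.016), Itga8 (-0.047), Itga9 (0.073), Lama1 (-0.028) and Lama5 (0.11). Itga6 turned with GC content and length corrected (-0.0062), without a filter (-0.0015) and without 1 library (from -0.035 to 0.022), and Lama2 without *APOE3* replicate 25 (0.012, in a range from -0.61 without 1 library). The log2 difference in the ratio of Itgb3 to Itgb5 ran from -0.12 to 0.10 without 1 library. With longest transcript lengths, chosen after seeing the data, the ratio of Lama5 to Lama4 levels was 0.747 in place of 1.49, and that of Itga5 to Itga6 was 0.938 in place of 1.76. The cause of these changes was not tested. No paired analysis was possible because the genotypes share no replicate numbers.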
